A study of Mus musculus with 8 samples.

Results

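The R-spondin, LGR and Wnt feedback genes are 10 genes that set how strongly a cell responds to Wnt ligands. They were taken by name from a table of 54532 annotated mouse genes, and were chosen with earlier results of these data known. They comprise the secreted R-spondins Rspo1, Rspo2 and Rspo3, their receptors Lgr4 and Lgr5, the membrane ubiquitin ligases Rnf43 and Znrf3, and the feedback inhibitors Axin2, Nkd1 and Notum.

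Wnt ligands bind Frizzled and LRP receptors and thereby spare beta-catenin, the coactivator of TCF/LEF factors, from destruction. RNF43 and ZNRF3 remove Frizzled from the cell surface, and an R-spondin bound to an LGR receptor clears these ligases and so raises the response to Wnt. In the stomach, R-spondins are known as products of the stroma, Lgr5 as a marker of gland-base cells, and Axin2 as a general readout of Wnt/beta-catenin signalling.

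Polyadenylated RNA came from the stomach corpus, whose glands secrete acid and pepsinogen, of 4 control and 4 mutant mice. The controls were Six2-Cre+/- PKAcaR wt/wt and the mutants Six2-Cre+/- PKAcaR fl/wt. Both groups therefore carried the Cre, both had the mixed background C57BL/6 X CD1, and neither was treated. PKAcaR is an allele of Prkaca, which encodes a catalytic subunit of protein kinase A (PKA). From the literature, Cre recombination of it is known to give an enzyme that no longer needs cyclic AMP. As its name says, the Cre is driven by sequences of Six2. Age, sex and the cells in which the allele had recombined are not analysed here. Libraries are numbered as in the labels, and each came from a separate animal per the series' design text. The comparison asked how these genes differed between mutant and control corpus.

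Library totals lay between 18942308 and 22814152 counts in controls and between 18184281 and 23814720 in mutants. Prkaca was lower in every mutant library, with a log2 fold change of -1.08 ± 0.09 (SE, adjusted p = 0.000604, edgeR's quasi-likelihood test). With the library totals as the only scaling, its log2 fold change was -0.38 ± 0.12 (SE, adjusted p = 0.0200, same test). Whether the reads came from the altered allele cannot be read from counts. Corpus markers were present in controls, where 6 parietal cell genes summed to 15281 to 19400 CPM (counts scaled to the TMM library size), against 160 to 2430 CPM in mutants. Transcripts of Gast, the gastrin gene of the antrum, had 0 reads in all 8 libraries. The 3 antrum markers (Gast, Pdx1 and Cldn2) nevertheless summed to 0.764 to 2.56 CPM in controls and to 36.2, 507, 43.7 and 157 CPM in mutants 1 to 4, with 1 of the 2 tested called higher (Cldn2, named after its values were seen, at 8.78 on the log2 scale, edgeR's adjusted p = 0.00309). Mutant 2 stood apart: its correlations with the other mutants (log2 CPM, across genes) were 0.820 to 0.868, whereas control pairs had at least 0.961. Its 8 fibroblast markers summed to 36059 CPM (2 of 8 called higher), against 1408 to 2200 in the other mutants and 1297 to 1502 in controls. Squamous forestomach markers summed to 150 CPM in control 3 and 491 in mutant 3, against at most 2.39 elsewhere. The 10 most abundant genes took 38.8% to 50.8% of counts in controls and 8.69% to 15.0% in mutants. Libraries were scaled with TMM factors, and column totals were tried as well.

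In edgeR's test over all 8 libraries, 1 of the 10 genes differed between the groups: Nkd1 was lower in mutants. Over all 15862 genes tested, 20.2% passed the same threshold of adjusted p under 0.05 (Benjamini-Hochberg), 9.39% as higher and 10.8% as lower in mutants. Of the other members, 8 were tested and not called, and Rspo2 had too few reads for the test. No member was called higher by edgeR, although 2, Lgr5 and Notum, were higher at an unadjusted p under 0.05. DESeq2 likewise called 0 higher and 1 lower, with 12.2% of its genes called higher and 12.6% lower. limma-voom with sample weights, which gives libraries that depart from their group less weight, called 2 higher (Lgr4 and Notum) and 2 lower (Nkd1 and Rspo1), with 16.2% and 19.2% of all genes called. Without mutant 2, edgeR called 1 higher (Lgr4) and 2 lower (Nkd1 and Rspo1), against 15.2% and 18.3% of all genes. With so few members these counts are read only as close to or below the shares over all genes with edgeR.

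**Figure D1:**
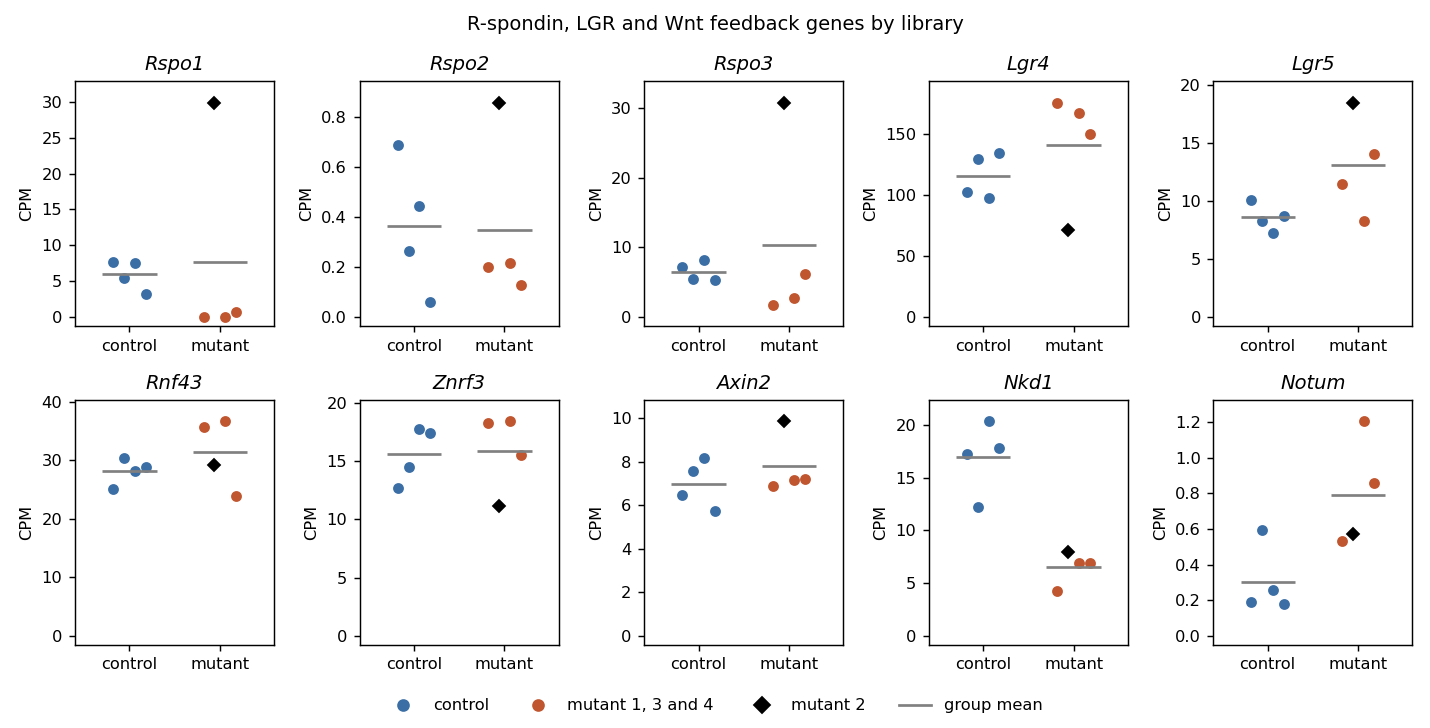
Each panel plots 1 gene, with CPM over TMM library sizes on the vertical axis and 1 point per library. Controls are blue, mutants 1, 3 and 4 orange, mutant 2 a black diamond, and the line is the group mean. Nkd1 is the sole gene whose groups do not overlap, and mutant 2 is the highest library for Rspo1, Rspo2, Rspo3, Lgr5 and Axin2 and the lowest for Lgr4 and Znrf3.

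The sequences just upstream of 3 members are shown because these members gave the clearest contrast in the data: Nkd1 fell, Axin2, another feedback inhibitor of the same pathway, did not pass the test, and Rspo1 varied most between mutant libraries. Each runs 5′ to 3′ over the 250 bases before the RefSeq start of the gene on the plus strand of GRCm38.p6, and capitals mark CG dinucleotides.
Nkd1 (chr8:88527383-88527632): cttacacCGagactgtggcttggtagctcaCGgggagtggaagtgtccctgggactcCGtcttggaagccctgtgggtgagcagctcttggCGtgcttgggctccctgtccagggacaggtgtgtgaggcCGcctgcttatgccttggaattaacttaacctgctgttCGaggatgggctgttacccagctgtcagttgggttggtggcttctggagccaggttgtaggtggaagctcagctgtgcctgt
Axin2 (chr11:108920099-108920348): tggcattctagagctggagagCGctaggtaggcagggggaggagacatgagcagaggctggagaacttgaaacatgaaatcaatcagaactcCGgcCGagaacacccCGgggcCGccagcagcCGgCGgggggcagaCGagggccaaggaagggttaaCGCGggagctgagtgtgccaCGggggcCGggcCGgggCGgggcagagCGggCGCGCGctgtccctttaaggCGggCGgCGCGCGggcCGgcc
Rspo1 (chr4:124986180-124986429): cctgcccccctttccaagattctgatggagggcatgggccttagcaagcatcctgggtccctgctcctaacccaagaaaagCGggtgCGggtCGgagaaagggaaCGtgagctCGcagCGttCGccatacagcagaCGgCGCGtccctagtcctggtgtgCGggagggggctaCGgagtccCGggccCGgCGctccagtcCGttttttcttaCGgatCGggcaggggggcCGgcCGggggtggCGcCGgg
The Nkd1 stretch held 6 CG dinucleotides, equal to the median of 6 over 32851 RefSeq promoters, while Axin2 held 24 and Rspo1 held 22. The RefSeq start of Nkd1 lies inside the interval the count table gives for the gene, so this stretch is upstream of that start and not of the whole gene. RefSeq windows were at hand for 5 of the 10 members (Rspo1, Lgr4, Rnf43, Axin2 and Nkd1), with 2 windows for Rnf43. The motifs CTTTGA (core of a TCF/LEF match) and TGACG (part of a cyclic AMP response element) were searched on both strands in the 300-base windows, from 250 bases before to 50 after each start. They occurred in 16% and 20.8% of all windows respectively, and in 0 of the 6 windows of the members. These letters are therefore absent from those windows, which says nothing about binding elsewhere.

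The R-spondins are the ligands that LGR receptors recognise. Rspo1 (ENSMUSG00000028871, chr4:124986430-125009099) had 124, 84, 118 and 55 reads in controls 1 to 4, and 0, 732, 2 and 18 reads in mutants 1 to 4. As levels these were 7.77, 5.52, 7.52 and 3.28 CPM in controls and 0, 29.9, 0.0860 and 0.770 CPM in mutants. Mutants 1, 3 and 4 all lay below every control, and mutant 2 lay above every control. The 0 reads of mutant 1 allow a level of up to 0.1 CPM (3 counts, counting error only), and mutant 2 stood at 4.96 times the control mean. With all 8 libraries the group means were 6.02 ± 2.08 CPM in controls and 7.68 ± 14.8 in mutants (SD, n = 4), and the log2 fold change was 0.35 ± 1.6 (SE, edgeR's adjusted p = 0.893). Without mutant 2 the mutant mean was 0.285 ± 0.422 CPM (SD, n = 3) and the log2 fold change -4.44 ± 0.89 (edgeR's adjusted p = 0.00590). With all 8 libraries weighted by limma-voom it was -4.96 ± 1.02 (adjusted p = 0.00458). With all 8 libraries and no weights, limma-trend gave -2.40 on log2(FPKM + 0.1) and -0.85 on log2(FPKM + 1), and edgeR with the replicate block -3.19, none of them called. The direction of the Rspo1 difference thus turned on mutant 2 and, with mutant 2 kept, on the method. In bulk tissue, fewer cells that make a transcript and less transcript per cell cannot be told apart, here or for any other member.

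Rspo3 (ENSMUSG00000019880, chr10:29452416-29535867) had 7.21, 5.52, 8.22 and 5.31 CPM in controls and 1.73, 30.7, 2.84 and 6.16 CPM in mutants. Mutants 1 and 3 lay below all controls, mutant 4 lay among them, and mutant 2 lay above all of them, at 4.68 times the control mean. The means were 6.56 ± 1.39 CPM in controls and 10.4 ± 13.7 CPM in mutants (SD, n = 4), with a log2 fold change of 0.66 ± 0.82 (SE, edgeR's adjusted p = 0.597). Without mutant 2 the log2 fold change was -0.88 ± 0.38 (edgeR's adjusted p = 0.104), and Rspo3 was called in 0 of 20 alternative fits. Its exons overlap 404 bases of the antisense gene Gm48159, which had 0 reads in every library.

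Rspo2 (ENSMUSG00000051920, chr15:43020794-43170826) was barely detected, with 11, 4, 7 and 1 reads in controls and 6, 21, 5 and 3 in mutants. Its highest library was again mutant 2, and the groups overlapped. It did not pass edgeR's low-count filter, and no difference was detectable at this depth.

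Because all R-spondins can act through the same receptors, their shares within a library were compared on FPKM, which are levels per transcript length and need no scaling between libraries when set as a share. Rspo3 made up 36.0%, 38.1%, 40.1% and 50.2% of the summed Rspo1, Rspo2 and Rspo3 FPKM in controls 1 to 4. In mutants 1 to 4 it made up 93.5%, 39.0%, 91.4% and 82.5%. Mutants 1, 3 and 4 were thus dominated by Rspo3, while mutant 2 had a share within the control range although its summed level was the highest of all libraries. The mean share was 41.1% ± 6.28 in controls and 76.6% ± 25.5 in mutants (SD, n = 4). The difference of 35.5 percentage points did not pass the exact permutation test (two-sided, 70 assignments, p = 0.0857, 0.257 adjusted over the 3 shares compared). Without mutant 2 the difference was 48.0 percentage points with an exact p of 0.0286, the smallest that 35 assignments allow, before adjustment. Leaving out the mutant within the control range made this p the smallest possible in advance. With any other single library left out, the exact p was 0.0857 to 0.114. A share near 90% in mutants 1 and 3 rests on few Rspo1 reads and a summed R-spondin level below that of every control.

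**Figure D2:**
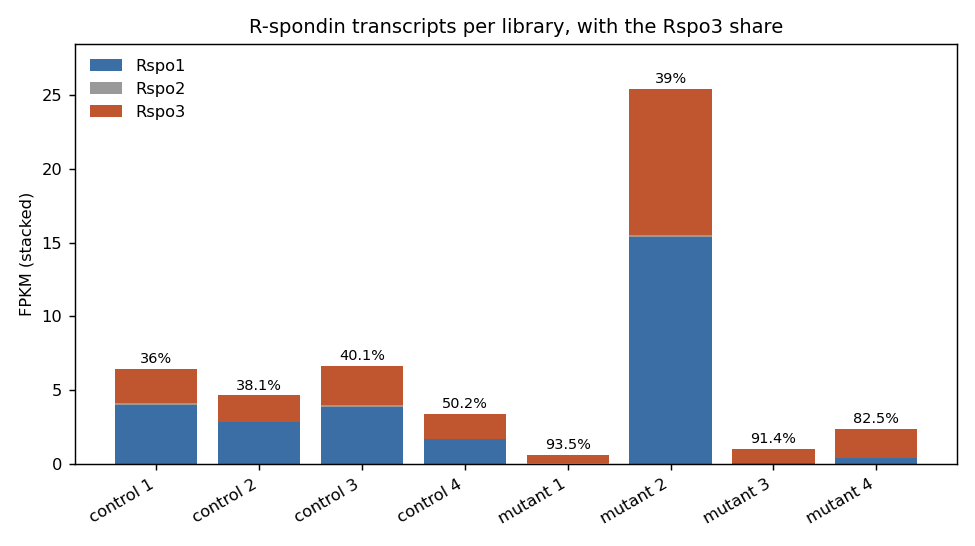
Stacked bars give the FPKM of Rspo1, Rspo2 and Rspo3 in each library, and the number above each bar is the share of Rspo3 in percent. Mutant 2 has the tallest bar with a share of 39.0%, and mutants 1, 3 and 4 have the shortest bars with shares of 82.5% to 93.5%.

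Markers of other cell types also differed between the libraries, and mutant 2 had the highest sum of the mutants for the mesothelial, endothelial, fibroblast and macrophage and neutrophil lists. In mutants 1, 3 and 4 the mesothelial and endothelial sums lay below every control, whereas the macrophage and neutrophil sums lay above. The mesothelium list (Msln, Upk3b, Wt1, Lrrn4 and Gpm6a) summed to 47.7 to 59.2 CPM in controls and to 23.8, 75.2, 44.1 and 35.4 CPM in mutants 1 to 4. Of its 4 tested genes, Msln was called higher and Gpm6a lower, and without mutant 2 1 was called higher and 3 lower. Upk3b, a mesothelial surface protein, had 5.67 to 8.77 CPM in controls and 0.0667, 6.32, 0.344 and 1.11 CPM in mutants. Wt1, a mesothelial transcription factor, had 0.239 to 0.877 CPM in controls and 0, 9.34, 0 and 0.385 CPM in mutants. Its lowest control value was near the floor of 3 counts (0.179 to 0.197 CPM in controls), and mutant 4 lay within the control range. Upk3b and Wt1 were named after their values were seen: like Rspo1 they were low in mutants 1 and 3 and much higher in mutant 2. In mutant 2, however, Upk3b lay within the control range, whereas Rspo1 and Wt1 lay above it. Msln of the same list was instead called higher over all 8 libraries. Six2 itself had 15.3, 14.3, 11.1 and 4.66 CPM in controls and 1.13, 27.2, 1.42 and 3.29 CPM in mutants, with a log2 fold change of -0.46 (adjusted p = 0.769, edgeR) with all libraries and -2.55 (adjusted p = 0.00483) without mutant 2. Endothelial markers summed to 158 to 195 CPM in controls, 831 in mutant 2 and 121 to 128 in the other mutants, with 0 of 6 called by edgeR or DESeq2, 0 at an unadjusted p under 0.05, 3 called lower by limma-voom and 4 called lower without mutant 2. Macrophage and neutrophil markers summed to 126 to 138 CPM in controls, 1651 in mutant 2 and 145 to 287 in the other mutants, with 2 of 6 called higher (3 without mutant 2). The part of these cells in the R-spondin values was not tested.

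**Figure D3:**
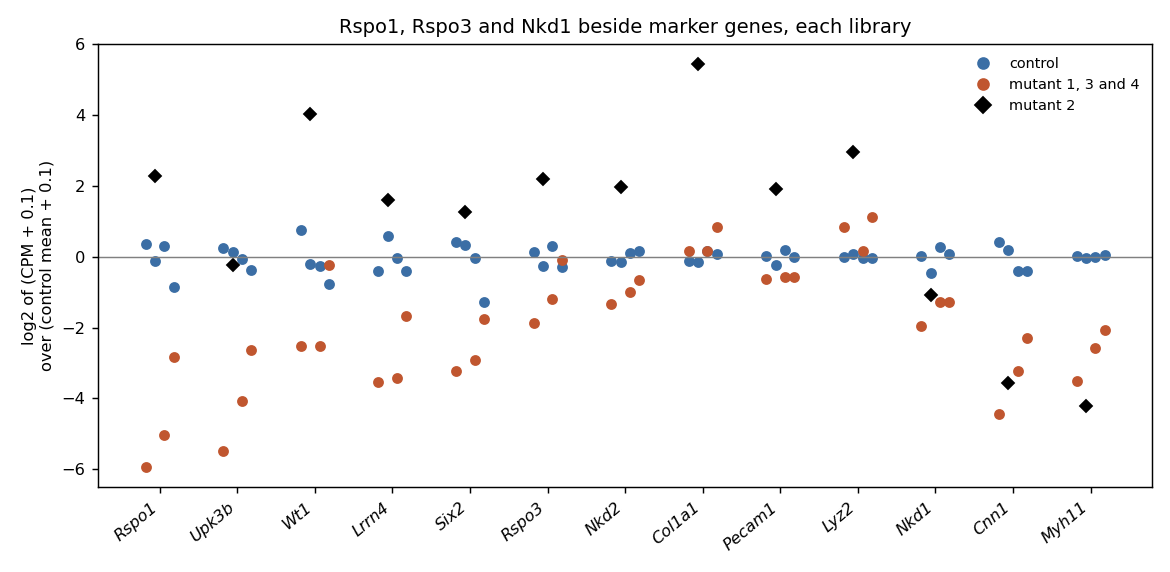
Points give, for each library, log2 of the level over the control mean, with 0.1 CPM added to both. Controls are blue, mutants 1, 3 and 4 orange and mutant 2 a black diamond. Rspo1 and Rspo3 stand beside mesothelial, stromal, endothelial and macrophage genes, and Nkd1 beside the smooth muscle genes Cnn1 and Myh11, with these marker genes picked for display after their values were seen. Of the mesothelial list, Msln, which was called higher, and Gpm6a, which was called lower, are not shown. Mutant 2 parts from the other mutants for Rspo1 and Rspo3, and all 4 mutants lie below the controls for Nkd1.

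Lgr4, the most abundant R-spondin receptor here (ENSMUSG00000050199, chr2:109917647-110014257), had 103, 129, 97.6 and 134 CPM in controls and 176, 71.9, 167 and 150 CPM in mutants. Mutants 1, 3 and 4 lay above every control, and mutant 2 below every control. The means were 116 ± 18.5 CPM in controls and 141 ± 47.5 CPM in mutants (SD, n = 4), with a log2 fold change of 0.28 ± 0.27 (SE, edgeR's adjusted p = 0.481). Without mutant 2, Lgr4 was called higher, by 0.50 ± 0.13 on the log2 scale (edgeR's adjusted p = 0.0136), and limma-voom with sample weights gave 0.46 (adjusted p = 0.0324). Lgr4 was thus opposite to Rspo1 in every mutant library: above the control range where Rspo1 was below it, and below where Rspo1 was above.

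Lgr5, the receptor that marks gland-base cells (ENSMUSG00000020140, chr10:115450311-115587780), had 10.1, 8.35, 7.26 and 8.78 CPM in controls and 11.5, 18.5, 8.30 and 14.1 CPM in mutants. Mutants 1, 2 and 4 lay above all controls and mutant 3 among them. The means were 8.62 ± 1.17 CPM and 13.1 ± 4.31 CPM (SD, n = 4). The log2 fold change of 0.60 ± 0.25 (SE) was not called (edgeR's adjusted p = 0.122). It was 0.39 (adjusted p = 0.163) without mutant 2 and 0.77 (adjusted p = 0.0441) without mutant 3, the sole library whose removal gave a call (9.56% of all genes were then called higher). The 5 proliferation markers summed to 108, 229, 77.6 and 169 CPM in mutants 1 to 4, the same order of libraries as for Lgr5, and to 69.9 to 123 CPM in controls, with 0 of 5 called by edgeR, DESeq2 or limma-voom and 1 higher at an unadjusted p under 0.05. Their part in the Lgr5 values was not tested.

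Of the summed FPKM of the receptors, Lgr5 made up 5.32%, 3.57%, 4.09% and 3.61% in controls and 3.62%, 12.9%, 2.77% and 5.10% in mutants. Lgr4 therefore supplied most of the receptor transcript in every library, and mutant 2 had the largest share of Lgr5. The difference of 1.94 percentage points did not pass the exact permutation test (p = 0.657, 0.657 adjusted), and it was -0.316 without mutant 2.

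Neither of the ubiquitin ligases that R-spondins antagonise was called. Rnf43 (ENSMUSG00000034177, chr11:87662722-87735539) had 25.2, 30.4, 28.3 and 28.8 CPM in controls and 35.8, 29.3, 36.7 and 23.9 CPM in mutants, and mutants lay above, within and below the control range. Its log2 fold change was 0.16 ± 0.15 (SE, edgeR's adjusted p = 0.487). Znrf3 (ENSMUSG00000041961, chr11:5276324-5444847) had 12.7, 14.5, 17.8 and 17.4 CPM in controls and 18.3, 11.2, 18.5 and 15.5 CPM in mutants, with a log2 fold change of 0.02 ± 0.20 (adjusted p = 0.943, edgeR). The groups of both genes overlapped, and each was called in 2 of 20 alternatives, both with column totals as library sizes.

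Rnf43 made up 65.7% to 71.6% of the summed FPKM of the ligases in controls and 64.9% to 75.9% in mutants. The mean shares were 68.6% ± 2.89 and 70.4% ± 4.5 (SD, n = 4), a difference within the spread of either group (exact permutation test, p = 0.629, 0.657 adjusted).

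Among the feedback inhibitors, Nkd1 fell and Axin2 and Notum were not called. Nkd1 (ENSMUSG00000031661, chr8:88521354-88594884), whose product binds Dishevelled and dampens Wnt signalling, had 276, 186, 320 and 299 reads in controls and 129, 194, 160 and 162 reads in mutants. As levels these were 17.3, 12.2, 20.4 and 17.9 CPM in controls and 4.30, 7.92, 6.88 and 6.93 CPM in mutants. Every mutant library lay below every control, at 0.254 to 0.467 times the control mean. Nkd1 was the 1 tested member of 9 whose groups did not overlap, whereas over all tested genes 30.3% did not, 14.2% with mutants higher and 16.1% with mutants lower. The means were 16.9 ± 3.42 CPM in controls and 6.51 ± 1.55 CPM in mutants (SD, n = 4), and Nkd1 fell by 1.38 ± 0.24 on the log2 scale (SE, edgeR's adjusted p = 0.00666). Without mutant 2, which was here the mutant nearest to the controls, the log2 fold change was -1.49 (adjusted p = 0.000536, edgeR). Nkd1 was called lower in all 20 alternatives, with log2 fold changes from -1.51 to -0.67 and a largest adjusted p of 0.0487 (edgeR, without control 3 and mutant 3, the libraries with squamous transcripts). The smallest change, -0.67 ± 0.24 (edgeR's adjusted p = 0.0360), came with column totals.

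Axin2 (ENSMUSG00000000142, chr11:108920349-108950783), a scaffold of the beta-catenin destruction complex that Wnt signalling itself induces, had 6.45, 7.56, 8.15 and 5.73 CPM in controls and 6.90, 9.87, 7.14 and 7.23 CPM in mutants. Mutants 1, 3 and 4 lay inside the control range and mutant 2 above it. The means were 6.97 ± 1.09 CPM and 7.79 ± 1.40 CPM (SD, n = 4), and the log2 fold change was 0.16 ± 0.20 (SE, edgeR's adjusted p = 0.606). Without mutant 2 it was 0.02 (adjusted p = 0.936, edgeR). The exons of Axin2 overlap 209 bases of the antisense gene Gm11670, which had at most 6 reads in any library.

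The ratio of Nkd1 to another member within a library does not depend on how libraries are scaled, and 3 such ratios were taken after the values had been seen. The log2 ratio of Nkd1 reads to Axin2 reads was 1.42, 0.69, 1.32 and 1.64 in controls and -0.68, -0.32, -0.05 and -0.06 in mutants. Nkd1 had more reads than Axin2 in every control and fewer in every mutant. The difference between groups was -1.55 against Axin2, -1.53 against Rnf43 and -1.40 against Znrf3 on the log2 scale, each with no overlap between groups. No test is given, since the ratios were chosen for what the single genes had shown. They describe unequal change of the genes and not which of them changed.

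Smooth muscle transcripts were low in the same libraries as Nkd1. The 8 smooth muscle markers summed to 2912 to 3860 CPM in controls and to 277, 601, 517 and 845 CPM in mutants 1 to 4, and all 8 were called lower, with Myh11, the smooth muscle myosin heavy chain, at -2.86 on the log2 scale (edgeR's adjusted p = 0.00453). Parietal cell markers (5 of 6 called lower) and chief cell markers (3 of 6 tested called lower, 5 without mutant 2) were also lower, the latter with sums of 297782 to 532825 CPM in controls and 994 to 41530 CPM in mutants. The part of these cells in the fall of Nkd1 was not tested.

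Notum (ENSMUSG00000042988, chr11:120653788-120661175), a secreted enzyme that removes the lipid Wnt ligands need for binding, was rare, with 3, 9, 4 and 3 reads in controls and 16, 14, 28 and 20 in mutants. As levels these were 0.188, 0.592, 0.255 and 0.179 CPM in controls and 0.533, 0.571, 1.20 and 0.855 CPM in mutants. Mutants 3 and 4 lay above all controls, and control 2 lay just above mutants 1 and 2. The means were 0.303 ± 0.195 CPM and 0.791 ± 0.311 CPM (SD, n = 4). The log2 fold change of 1.37 ± 0.50 (SE) was not called (edgeR's adjusted p = 0.0844). It was 1.90 and called without control 2 (edgeR's adjusted p = 0.0451, with 4.79% of all genes called higher), 1.48 and called by limma-voom with sample weights (adjusted p = 0.0322), and 1.49 and not called without mutant 2 (adjusted p = 0.0551). Its exons share 708 bases with the antisense gene Notumos and 210 with Myadml2os, which had at most 6 and 1 reads. Whether reads were counted by strand is not stated, so some Notum reads could belong to these genes. Mucous neck cell markers, the list whose gene Tff2 followed Notum most closely, summed to 2382 to 6190 CPM in controls and 9357 to 26784 CPM in mutants, with 5 of 5 called higher. Their part in the Notum values was not tested.

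**Figure D4:**
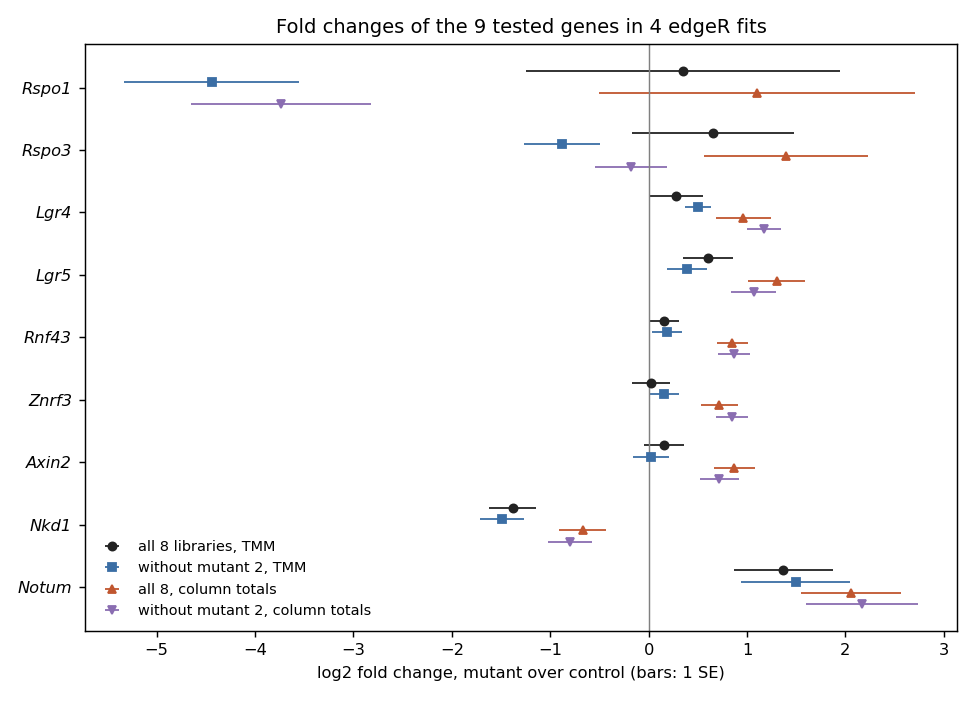
Points give log2 fold changes, mutant over control, of the 9 tested genes, and bars 1 SE, in edgeR fits with TMM or column totals as library sizes, each with all 8 libraries or without mutant 2. Nkd1 is below 0 in all 4 fits, Rspo1 and Rspo3 change side without mutant 2, and column totals move every gene to the right.

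Scaling by column totals moved the median gene from a log2 fold change of 0.07 to one of 0.76, a shift of 0.70, and the calls moved with it. Against that shift, 59.3% of all genes were called higher and 4.56% lower, and 6 members were called higher (Lgr4, Lgr5, Rnf43, Znrf3, Axin2 and Notum) and 1 lower (Nkd1). The log2 fold changes of the 6 were then 0.96, 1.30, 0.85, 0.72, 0.87 and 2.05, so those of Lgr4, Rnf43, Znrf3 and Axin2 lay around the 0.76 of the median gene. With column totals and without mutant 2, 6 members were called higher and 2 lower (Nkd1 and Rspo1), beside 64.1% and 7.05% of all genes. Relative to the other genes of the same libraries, Nkd1 stood below the median gene in both scalings. The median over the 9 tested members was 0.28 with TMM and 0.96 with column totals.

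Levels of different genes were ranked by FPKM. In controls Lgr4 was highest at 19.6 ± 3.04 FPKM (SD, n = 4), followed by Rnf43 at 4.27 ± 0.323, Nkd1 at 3.69 ± 0.757, Rspo1 at 3.09 ± 1.08, Rspo3 at 2.11 ± 0.456 and Znrf3 at 1.97 ± 0.307. From Rnf43 to Znrf3 the ranges of neighbours overlapped. Axin2 at 1.26 ± 0.199 and Lgr5 at 0.834 ± 0.113 stood clear of their neighbours, and Notum at 0.125 ± 0.0799 and Rspo2 at 0.0709 ± 0.0522 overlapped at the bottom. In mutants Lgr4 was again highest at 23.9 ± 8.04 FPKM and Rnf43 next at 4.77 ± 0.923. Rspo1 at 3.95 ± 7.60 and Rspo3 at 3.34 ± 4.42 came next, with mutant 2 at 15.3 and 9.90 FPKM and the other mutants at most 0.394 and 1.98, so their places rest on 1 library. Nkd1 at 1.42 ± 0.338 FPKM had a range that overlapped those of Znrf3 at 2.00 ± 0.430 and Axin2 at 1.41 ± 0.253. From Rnf43 to Lgr5, at 1.27 ± 0.417, all neighbours in the mutant order overlapped.

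For 8 of the tested members the gene most like it was found as the smallest root mean square difference of centred log2 CPM over the 8 libraries, among 13475 genes with a mean of at least 1 CPM. Nkd1 was closest to Tns1, a focal adhesion protein, with a difference of 0.160 against a spread of Nkd1 itself of 0.81 (SD of its log2 CPM). Tns1 fell by 1.62 on the log2 scale (edgeR's adjusted p = 0.00170). Since Tns1 was picked for its likeness to Nkd1 in these libraries, its fall is no separate result. Rspo1 was closest to Ptn, a secreted growth factor, at the largest distance of these members (0.968, against an SD of 3.48). Ptn had 10.1 to 19.6 CPM in controls and 0, 103, 1.16 and 2.35 CPM in mutants. Lgr5 was closest to Incenp, a mitotic protein (0.110), Notum to Tff2, a mucous neck cell peptide (0.308), and Lgr4 to Slc22a23 (0.0727). The SDs of Lgr5, Notum and Lgr4 themselves were 0.453, 0.957 and 0.438. Rnf43, Znrf3 and Axin2, which varied least, were closest to Cnot6l (0.118), Eif2ak3 (0.0802) and Snhg15 (0.0677). Against their own SDs of 0.217, 0.267 and 0.232, these small distances partly reflect how little the members varied. These distances share the same 8 libraries and describe them alone.

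Family genes outside the 10 were examined in the same fit. Rspo4, the remaining R-spondin, had 1.07, 1.05, 1.72 and 1.37 CPM in controls and 0.433, 0, 0.129 and 0.257 CPM in mutants, and fell by 2.60 ± 0.72 on the log2 scale (edgeR's adjusted p = 0.0361). Its groups did not overlap, and its call was lost in 9 of 18 alternatives, among them the removal of any 1 control or of mutant 3 or 4 (log2 fold changes of -2.70 to -2.44). Nkd2, the paralogue of Nkd1, had 3.35 to 4.18 CPM in controls and 1.43, 14.9, 1.85 and 2.35 CPM in mutants. Its log2 fold change was 0.45 with all libraries (edgeR's adjusted p = 0.695) and -0.999 without mutant 2 (adjusted p = 0.0156), and limma-voom over all 8 libraries called it lower (-0.88, adjusted p = 0.0383). Mutants 1, 3 and 4 lay below every control, as for Nkd1, and mutant 2 above every control. Lgr6 had too few reads to be tested.

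Of 12 Frizzled and LRP receptors, 1 was called higher and 1 lower, beside 9.39% and 10.8% of all genes. Their median log2 fold change was 0.29, against 0.07 over all genes. The coreceptor Lrp5 rose from 84.1 to 96.7 CPM in controls to 227, 145, 156 and 187 CPM in mutants, by 0.97 ± 0.16 on the log2 scale (edgeR's adjusted p = 0.00512), and kept its call in all 20 alternatives. The receptor Fzd4 had a log2 fold change of -0.73 ± 0.18 (edgeR's adjusted p = 0.0260), but it was -0.05 with column totals (adjusted p = 0.837). Its call was also lost without any 1 control and without mutant 4 (-0.76 to -0.67). Without mutant 2, 2 receptors were called higher and 1 lower, beside 15.2% and 18.3% of all genes.

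Of 9 genes of the destruction complex and Dishevelled, 1 was called: Ctnnb1, which encodes beta-catenin, was higher by 0.48 ± 0.14 on the log2 scale (edgeR's adjusted p = 0.0448), and lost the call in 10 of 20 alternatives, among them the removal of any 1 control or of mutant 1 or 4 (0.44 to 0.55). Of 7 tested TCF/LEF factors and coactivators, Bcl9, a beta-catenin coactivator, was called higher by 0.75 ± 0.18 (edgeR's adjusted p = 0.0214) and lost the call in 7 of 20 alternatives, among them the removal of control 1, 2 or 3 or of mutant 1 (0.69 to 0.80). Without mutant 2, 2 genes of this list were called lower and 1 higher, beside 18.3% and 15.2% of all genes. The median log2 fold changes of these lists with all libraries were 0.09 and 0.26, and over all genes 9.39% were then called higher and 10.8% lower. Neither Wnt secretion gene was called by edgeR, DESeq2 or limma-voom or had an unadjusted p under 0.05, the nearer being Porcn at 0.41 (edgeR's adjusted p = 0.228).

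Other genes known as Wnt/beta-catenin targets in some tissues had 4 calls, all higher in mutants. This list was chosen with earlier results of these data known, so its counts are descriptive. Of 13 tested by edgeR, 4 were called higher and 0 lower, beside 9.39% and 10.8% of all genes. The median log2 fold change was 1.05, against 0.07 over all genes. DESeq2 and limma-voom each called 6 higher and 0 lower, beside 12.2% and 16.2% of all genes called higher. None of the list was lower at an unadjusted p under 0.05. The ephrin receptor Ephb2 rose from 8.52 to 14.8 CPM in controls to 63.3, 101, 40.7 and 53.8 CPM in mutants, by 2.44 ± 0.31 on the log2 scale (edgeR's adjusted p = 0.00231). The cell cycle gene Ccnd1 rose by 1.17 ± 0.14 and the transcription factor Sox9 by 1.05 ± 0.17 on the log2 scale (adjusted p = 0.00196 and 0.00484, edgeR). Cd44, a cell adhesion receptor named after its values were seen, rose by 3.45 ± 0.70 on the log2 scale with mutant 2 at 391 CPM and the other mutants at 52.5 to 83.2 CPM (adjusted p = 0.0125, edgeR). Without mutant 2, 6 of the 13 were called higher, beside 15.2% of all genes, and the median of the list was 0.71. Of the members, the feedback inhibitors Axin2, Nkd1 and Notum, which are also known as targets, gave 0 higher calls and 1 lower call in edgeR's fit over all 8 libraries. Their log2 fold changes were 0.16, -1.38 and 1.37, so Notum lay above the median of the other targets. Notum was also higher at an unadjusted p under 0.05 and was called higher by limma-voom (adjusted p = 0.0322). Lgr5, Rnf43 and Znrf3, also known as targets in some tissues, were not called in edgeR's fit, at 0.60, 0.16 and 0.02. Of these, Lgr5 was higher at an unadjusted p under 0.05. The difference between these members and the other targets was not tested.

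**Figure D5:**
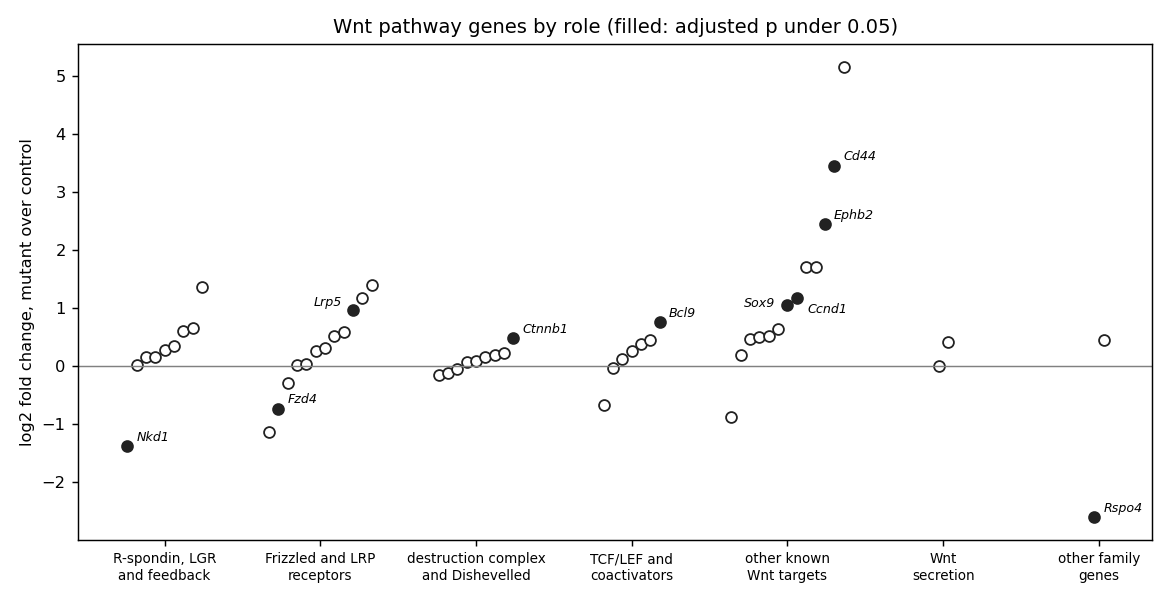
Each point is the log2 fold change, mutant over control, of 1 tested gene (edgeR, all 8 libraries), arranged by role and sorted within each role. Filled points passed an adjusted p under 0.05 and carry the gene's name. Among the members only Nkd1 is filled, and the other known targets hold 4 filled points above 1.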

How the data were processed

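The labels' protocols give RNAlater storage, Trizol extraction and NEBNext Ultra RNA libraries of polyA RNA from the corpus of 4 control and 4 mutant mice. Raw counts and FPKM per gene are as the authors deposited them. The submitters' processing notes name STAR 2.5, featureCounts, fastp and CASAVA without their roles. Build and strand setting were not given in the sources used here. All 10 members had the same start and end in GENCODE M21 (GRCm38). The column SCI was taken as SC1 of the controls.

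Low counts were removed with filterByExpr. After scaling by trimmed means of M values (TMM) the robust quasi-likelihood test of edgeR 4.0.16 (R 4.3.3) was applied, mutant over control, with p adjusted by Benjamini-Hochberg over all 15862 genes tested and a threshold of 0.05. Log2 fold changes are from this fit, and their SE is the coefficient without prior count divided by the square root of F. Shares of FPKM were tested by exact two-sided permutation. The edgeR test, not the permutation test, was also run on simulated data, and no result of that run is used here. Alternatives were DESeq2 1.42.0, limma 3.58.1 (voom with sample weights, or limma-trend on log2 FPKM with a pseudocount of 1 or 0.1), RLE size factors, column totals, other filters, the replicate block and each library left out.

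The members and gene lists were chosen with earlier results of these data known. Named are the members, Prkaca, Six2, up to 3 called genes by smallest p in each direction from each pathway list (with none called, the 1 of smallest p), and the 1 gene most like each tested member (for 1 member not reported here). Libraries of a group differed by more than sampling noise (chi-square of at least 15.0 per degree of freedom). A floor of 3 counts was 0.179 to 0.197 CPM in controls and 0.100 to 0.129 CPM in mutants, and covers counting error only.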

Additional observations from a re-analysis of the deposited data

Results flagged for a closer look

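In 4 of the 26 groups of 4 libraries examined (each member and each share, in each genotype), 1 library lay far from the others, by a gap whose share of the group's whole range exceeded Dixon's 95% critical value. All 4 were mutant 2, as the highest of the mutants in CPM. The gap was 0.9742 of the range for Rspo1, with 29.9 CPM against at most 0.770 in the other mutants. It was 0.8808 for Rspo2, with 0.857 CPM against at most 0.215, from 21 reads. For Rspo3 it was 0.8474, with 30.7 CPM against at most 6.16. For Axin2 it was 0.8902, with 9.87 CPM against at most 7.23, and there the other mutants lay close together. Chance alone marks about 5% of such groups, and the 4 values come from the same library, so they are not independent.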

How the results depend on the processing

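The count over all genes, 3208, was 4930 with DESeq2, 5615 with limma-voom and sample weights, 10136 with column totals, 11471 with column totals and without mutant 2, 1410 without both libraries that held squamous transcripts, and 1717 (without control 1) to 5400 (without mutant 2) with single libraries left out. Members called higher numbered 6 with column totals, with or without mutant 2, 2 with limma-voom, and 0 to 1 with single libraries left out (Notum without control 2, Lgr4 without mutant 2, Lgr5 without mutant 3). Members called lower numbered 2 with column totals and without mutant 2, 2 with limma-voom, and 1 to 2 with single libraries left out. Rspo1, at 0.35 with all libraries, was -4.44 (without mutant 2) to 0.77 with single libraries left out, -4.96 with limma-voom and -3.74 with column totals and without mutant 2. Fzd4 turned to 0.090 under the last setting. With single libraries left out, the Rspo3 share differed by 29.8 to 48.0 percentage points, the Lgr5 share by -0.316 to 3.05 and the Rnf43 share by -0.0194 to 3.65. The combined setting and the Rspo3 share over Rspo1 and Rspo3 reads, which differed by 31.1 percentage points, were chosen after seeing the data. Apart from mutant 2 and the scaling, which the settings themselves vary, the cause of these changes was not tested.

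Samples share a replicate number but no stated litter or batch, and same-numbered libraries did not deviate together (r across genes 0.0383, -0.0506, 0.0642 and -0.00256). With the replicate block 1824 genes were called, 0 members higher and 1 lower (Nkd1, -1.39, adjusted p = 0.0341, edgeR). Rspo1 was then -3.19 and not called. For Rspo1, DESeq2 gave no p. With 4 libraries a group and 1 to 28 reads for Notum and Rspo2, changes of these genes are poorly resolved.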
